A study of Rattus norvegicus with 6 samples.

Results

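Interferon-stimulated and guanylate-binding genes were followed in whole kidneys of 2 rat strains, Dahl S and Lewis. The group holds 46 listed genes, named for their known place in the interferon response. The rule that finds their probe sets uses no measured value, but the genes were chosen with earlier results of these data known. A probe set counted when the array's annotation gave it 1 gene symbol and that symbol, or an earlier one of the same gene, was on the list; 59 of the 31099 probe sets on the array did, and they stand for 43 of the 46 genes, among 14218 genes that the annotation names in this way. Oas2, Gbp5 and Xaf1 are not reported here. All 6 animals were male, and all were fed a diet with 8% NaCl from 5 weeks of age for 8 weeks, 3 in each strain. The Dahl S strain becomes hypertensive and develops kidney damage on salt, and the Lewis strain is an inbred strain not selected for salt sensitivity. RNA of each rat's kidney was measured on 1 array. No low-salt animals were analysed here, so every difference below lies between 2 salt-fed strains, and inherited differences cannot be told apart from differences in the response to salt.

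Interferons are cytokines that bring cells into an antiviral and immune-alert state. Type I interferons act through the receptor chains Ifnar1 and Ifnar2 and the factor ISGF3, which contains Stat2 and Irf9 and binds the interferon-stimulated response element in promoters of antiviral genes such as Mx1 and the Oas genes. Interferon-gamma, made by T and NK cells, acts through Ifngr1 and Ifngr2 and the gamma-activated site in promoters, and it strongly induces Irf1 and the large GTPases of the guanylate-binding and immunity-related families. Many genes respond to both kinds, so the grouping used here, into 32 type I style genes, 7 interferon-gamma style genes and 7 receptor and signalling genes, follows the better known inducer.

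The promoters of some members that were higher in Dahl S, and of a pair that did not pass the test, show the letters of these elements. RefSeq promoters (assembly GRCr8, from a Brown Norway rat and thus neither strain measured here) were matched for 37 of the 46 genes, each a window from 250 bases before to 50 bases after the gene's start. The core of the interferon-stimulated response element was searched as GAAA, any 2 bases and GAAA again, and the core of the gamma-activated site as TTCNNNGAA, on both strands. In the sequences below, which hold the 250 bases before the start, capitals mark these matches. The first 4 genes are the interferon-gamma style genes that passed the test, the next 3 are type I style genes that passed, and Irf7 and Ifit3 are type I style genes that did not. The sequences shown all hold a match. Mx1, Oasl and Parp9, also type I style genes that passed, held neither core in their windows and are not shown.
Irf1, chr10:38417685-38417934, plus strand: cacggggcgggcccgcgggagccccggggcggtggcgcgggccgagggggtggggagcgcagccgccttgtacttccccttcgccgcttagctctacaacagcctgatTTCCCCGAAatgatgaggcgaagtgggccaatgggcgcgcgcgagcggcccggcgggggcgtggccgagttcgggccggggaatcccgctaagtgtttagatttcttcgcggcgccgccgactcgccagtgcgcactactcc
Irf8, chr19:65699034-65699283, plus strand: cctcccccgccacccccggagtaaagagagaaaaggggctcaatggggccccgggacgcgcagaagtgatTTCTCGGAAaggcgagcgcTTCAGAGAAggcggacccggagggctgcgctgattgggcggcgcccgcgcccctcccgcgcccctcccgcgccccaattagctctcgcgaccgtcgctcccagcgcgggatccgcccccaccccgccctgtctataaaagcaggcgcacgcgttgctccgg
Gbp2, chr2:234005477-234005726, plus strand: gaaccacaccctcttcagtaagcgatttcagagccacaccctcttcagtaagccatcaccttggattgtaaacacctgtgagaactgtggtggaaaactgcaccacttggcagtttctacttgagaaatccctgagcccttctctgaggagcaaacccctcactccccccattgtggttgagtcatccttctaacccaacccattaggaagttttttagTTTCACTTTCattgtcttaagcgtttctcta
Irgm, chr10:33742579-33742828, minus strand: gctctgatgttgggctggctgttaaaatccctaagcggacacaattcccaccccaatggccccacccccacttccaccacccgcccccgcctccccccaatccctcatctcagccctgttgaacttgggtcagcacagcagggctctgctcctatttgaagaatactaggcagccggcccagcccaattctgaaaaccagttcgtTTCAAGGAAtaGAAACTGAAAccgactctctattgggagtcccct
Ifi27, chr6:128355062-128355311, plus strand: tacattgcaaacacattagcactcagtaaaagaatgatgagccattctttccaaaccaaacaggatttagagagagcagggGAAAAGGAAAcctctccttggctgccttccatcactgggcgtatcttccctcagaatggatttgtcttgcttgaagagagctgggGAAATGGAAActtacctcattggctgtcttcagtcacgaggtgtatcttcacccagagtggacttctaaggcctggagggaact
Bst2, chr16:18254968-18255217, minus strand: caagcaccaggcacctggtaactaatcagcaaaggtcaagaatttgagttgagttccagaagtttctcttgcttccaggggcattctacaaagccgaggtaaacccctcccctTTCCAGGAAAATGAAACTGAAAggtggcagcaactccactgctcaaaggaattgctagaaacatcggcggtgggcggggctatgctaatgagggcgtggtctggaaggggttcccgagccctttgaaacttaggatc
Rsad2, chr6:48788121-48788370, minus strand: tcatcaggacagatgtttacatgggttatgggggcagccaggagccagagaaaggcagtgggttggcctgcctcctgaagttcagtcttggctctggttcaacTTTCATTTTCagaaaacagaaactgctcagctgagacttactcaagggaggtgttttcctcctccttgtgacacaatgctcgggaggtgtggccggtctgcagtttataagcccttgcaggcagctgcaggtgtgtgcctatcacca
Irf7, chr1:205800024-205800273, minus strand: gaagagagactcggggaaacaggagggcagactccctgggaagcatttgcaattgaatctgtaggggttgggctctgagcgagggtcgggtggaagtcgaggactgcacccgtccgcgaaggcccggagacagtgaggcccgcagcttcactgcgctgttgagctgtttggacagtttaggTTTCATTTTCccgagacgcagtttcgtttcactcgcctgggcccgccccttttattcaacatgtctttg
Ifit3, chr1:241527076-241527325, plus strand: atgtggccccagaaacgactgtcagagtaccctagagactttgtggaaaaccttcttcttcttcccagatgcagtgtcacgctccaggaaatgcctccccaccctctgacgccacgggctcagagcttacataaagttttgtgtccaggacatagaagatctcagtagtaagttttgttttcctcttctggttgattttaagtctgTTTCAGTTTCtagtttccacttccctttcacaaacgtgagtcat

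The response element core was present in 22 of the 37 member windows (59.5%), against 3.77% of all 27457 windows of that length. By group it was in 17 of 23 windows of type I style genes, 5 of 7 of interferon-gamma style genes and 0 of 7 of receptor and signalling genes. The gamma-activated site core was in 14 of 37 member windows (37.8%), against 8.68% of all windows, and in 5 of 7 windows of interferon-gamma style genes, 7 of 23 of type I style genes and 2 of 7 of receptor and signalling genes. It was in 6 of 14 windows of genes higher in Dahl S and in 4 of 14 of tested genes that did not pass. Both cores were in 9 member windows, against 0.524% of all windows, and in 1 of these, that of Bst2, they overlap. Irf1 holds a gamma-activated site core 142 bases before its start and no response element core, Gbp2 holds the response element core on its reverse strand 31 bases before its start, and Irgm holds both. Genes that rose and genes that did not pass shared the response element core: it was in 7 of 14 windows of genes higher in Dahl S and in 10 of 14 windows of tested genes that did not pass. These are matches of letters in a reference sequence, with no test and no measure of binding.

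Interferon-related genes were more often higher in Dahl S than lower. Of the 43 genes with a probe set, 35 passed the filter on low values, and of these 15 were higher in Dahl S, 1 was lower and 19 did not pass the threshold of 0.05 on the adjusted p. By probe set, 16 of 45 were higher and 1 was lower, where 8.51% and 7.73% of all probe sets on the array were called in these directions. Over all 9535 genes tested in the same way, 9.04% were higher and 7.59% lower, beside 42.9% and 2.86% of the members. Since the list was drawn up with results known, these shares describe the members and are not independent evidence of a direction. The median difference between the strains, Dahl S minus Lewis, was 0.32 over the 35 genes on the scale of quantile-normalized log2(signal + 16), against 0.00 for the whole array. The ranges of the strains were separate in 21 of the 35 genes, against 34.5% of all probe sets. No member passed the filter through the values of a single strain alone, and 39 of the 45 member probe sets tested lay above the filter's level on all 6 arrays. Differences and adjusted p-values here and below are from limma, with n = 3 arrays in each strain and Benjamini-Hochberg adjustment over the 15778 probe sets tested.

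The number of members called changed when 1 array was left out, while their median difference stayed at 0.29 to 0.33. The 15 higher calls fell to 9 without Dahl S array 1, to 10 without Dahl S array 2 and to 8 without Dahl S array 3. Higher calls over all probe sets fell too, from 1342 to 803, 833 and 762. Without Lewis arrays 1, 2 and 3, higher calls were 15, 12 and 11 for members and 1444, 1094 and 1436 for all probe sets. In the deposited signals without normalization, where the whole array stood 0.41 higher in Dahl S by its median, 7 members were called higher and 0 lower, and the members' median was 0.69. Of the 16 called genes, Ifi27, Irf1, Stat3, Gbp2, Parp9, Ifitm1 and Irgm kept their call with any 1 array left out, and all of these except Stat3 also kept it under every other setting tried. Without normalization Irf8 kept its call (0.94, adjusted p = 0.037), while Mx1, Oasl, Rsad2, Bst2, Dtx3l, Ifitm3, Stat3 and Irf9 were 0.70 to 0.87 and did not pass, and Ifnar2 was -0.05. Without a filter on low values Oasl, Rsad2, Irf8, Irf9 and Bst2 did not pass (adjusted p = 0.057 to 0.10).

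**Figure D1:**
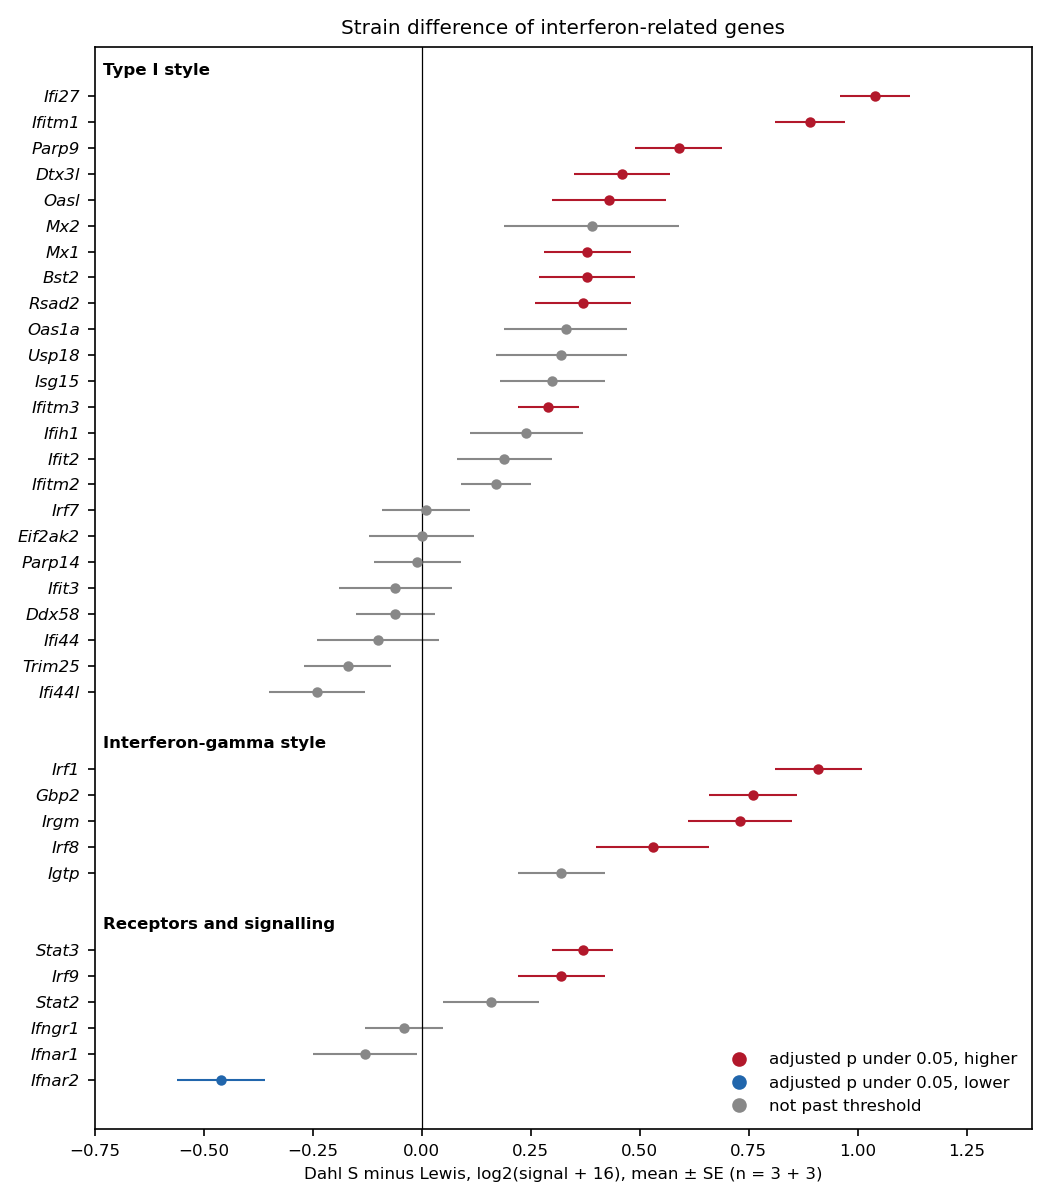
Differences between Dahl S and Lewis for the 35 tested genes, by group, on the x axis in log2 units. Points are differences of strain means, bars their SE from limma, and colours the call. The 5 interferon-gamma style genes all lie to the right of 0, from 0.32 to 0.91, whereas the 24 type I style genes spread from -0.24 to 1.04.

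Interferon-gamma style genes held some of the larger rises. Of 5 tested, Irf1, Gbp2, Irgm and Irf8 were higher in Dahl S and Igtp did not pass, with a median difference of 0.73. The higher share was 80.0% of these few genes, beside 9.04% over all genes. Irf1, a transcription factor that switches on antigen presentation and GTPase genes, measured 8.44, 8.48 and 8.31 on Dahl S arrays 1, 2 and 3 and 7.59, 7.42 and 7.48 on Lewis arrays 1, 2 and 3. The Dahl S arrays were all above the Lewis arrays, and each strain's values stayed within a narrow range. The Dahl S level of Irf1 was 1.88-fold that of Lewis (0.91, SE 0.10, adjusted p = 4.8e-05). Gbp2, a guanylate-binding GTPase that gathers on the vacuoles of microbes, gave 8.10, 7.88 and 8.04 in Dahl S and 7.15, 7.27 and 7.31 in Lewis, again with no overlap. It was 1.7-fold higher (0.76, SE 0.10, adjusted p = 3.1e-04).

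Irgm, an immunity-related GTPase of the same defence pathway, had 7.23, 7.11 and 7.02 in Dahl S and 6.34, 6.50 and 6.33 in Lewis. All 3 Lewis values lay below all 3 Dahl S values, a 1.66-fold difference (0.73, SE 0.12, adjusted p = 0.0015). Irf8, a transcription factor that directs the development of monocytes and macrophages, measured 7.26, 7.63 and 7.30 in Dahl S and 6.85, 6.73 and 7.03 in Lewis. It was higher in Dahl S (0.53, SE 0.13, adjusted p = 0.017), with Dahl S array 2 the highest of the 6. Leaving out that array ended the call of Irf8 (0.41, adjusted p = 0.09), as did leaving out Lewis array 2 (0.46, adjusted p = 0.067), and it did not pass when no filter on low values was set (adjusted p = 0.057). Igtp, another immunity-related GTPase, had 8.26, 8.22 and 8.01 in Dahl S and 7.93, 7.85 and 7.75 in Lewis on its brighter probe set. Its strain ranges did not overlap, but the difference did not pass (0.32, SE 0.10, adjusted p = 0.054); it passed without Lewis array 1 (0.36, adjusted p = 0.03) and with arrays scaled to a common median (0.33, adjusted p = 0.045). The second Igtp probe set gave -0.05 (adjusted p = 0.81).

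Some type I style genes were higher in Dahl S and others did not pass the test. Of 24 tested, 9 were higher, 0 lower and 15 did not pass, with a median of 0.29. The higher share was 37.5%, beside 9.04% over all genes. The 9 calls fell to 4 without Dahl S array 1, to 3 without Dahl S array 3 and to 3 without normalization. Under these settings higher calls over all probe sets fell from 1342 to 803, 762 and 666. Whether they differed from the interferon-gamma style genes as a group was not tested. Ifi27, a small hydrophobic protein gene induced by interferon alpha, measured 10.89, 10.89 and 10.87 on Dahl S arrays 1, 2 and 3 and 9.70, 9.98 and 9.86 on Lewis arrays 1, 2 and 3. The Dahl S rats were nearly equal, and all lay well above the Lewis rats. Ifi27 was 2.06-fold higher, the largest difference among the 35 genes in the reported fit (1.04, SE 0.08, adjusted p = 3.2e-06).

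Among the interferon-induced transmembrane proteins, which block viruses at the cell membrane, Ifitm1 rose most. Its values were 9.61, 9.75 and 9.62 in Dahl S and 8.78, 8.75 and 8.77 in Lewis, so that both strains were tight and well apart. It was 1.85-fold higher (0.89, SE 0.08, adjusted p = 1.0e-05). Ifitm3 had 10.23, 10.24 and 10.30 in Dahl S and 9.97, 9.99 and 9.96 in Lewis, a small but regular step (0.29, SE 0.07, adjusted p = 0.012). Leaving out Dahl S array 3 ended the Ifitm3 call (0.27, adjusted p = 0.084), as did arrays scaled to a common median (0.26, adjusted p = 0.069). Ifitm2 differed by 0.17 (SE 0.08) and its strains overlapped. These genes are close relatives in sequence, and how far their probes share targets was not tested.

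Parp9 and Dtx3l, which encode an ADP-ribosyltransferase and a ubiquitin ligase that work as 1 complex in the interferon response, were both higher. They are neighbouring genes in the RefSeq table (GRCr8). Parp9 measured 8.09, 8.03 and 7.95 in Dahl S and 7.44, 7.37 and 7.50 in Lewis, with no overlap (0.59, SE 0.10, adjusted p = 0.0013). Dtx3l gave 7.89, 7.73 and 7.77 in Dahl S and 7.18, 7.48 and 7.36 in Lewis, likewise apart (0.46, SE 0.11, adjusted p = 0.014); leaving out Dahl S array 1 (0.41, adjusted p = 0.076) or 3 (0.47, adjusted p = 0.051) ended the call. Their relative Parp14 gave -0.01 (SE 0.10) on its brighter probe set and 0.20 on the other, with overlapping strains on both.

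Of the antiviral effectors, Mx1, Oasl, Rsad2 and Bst2 rose by small amounts. Mx1, a dynamin-like GTPase that traps viral particles, measured 7.57, 7.71 and 7.63 in Dahl S and 7.20, 7.30 and 7.26 in Lewis (0.38, SE 0.10, adjusted p = 0.02). Oasl, a relative of the oligoadenylate synthetases, gave 6.87, 7.15 and 7.05 in Dahl S and 6.63, 6.72 and 6.44 in Lewis (0.43, SE 0.13, adjusted p = 0.041). Rsad2, known as viperin, which makes an antiviral nucleotide, had 8.22, 8.04 and 8.26 in Dahl S and 7.95, 7.68 and 7.78 in Lewis (0.37, SE 0.11, adjusted p = 0.031). In each of these genes the lowest Dahl S value lay above the highest Lewis value. Bst2, or tetherin, which holds budding virus at the cell surface, measured 8.89, 8.63 and 8.66 in Dahl S and 8.18, 8.55 and 8.30 in Lewis (0.38, SE 0.11, adjusted p = 0.038), and Lewis array 2 lay only just below the lowest Dahl S array.

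These 4 calls were lost when single arrays were left out. Mx1 no longer passed when any 1 of the Dahl S arrays was removed (0.35 to 0.42, adjusted p = 0.053 to 0.09). Oasl was lost when any Dahl S array, or Lewis array 3, was removed (0.35 to 0.50, adjusted p = 0.056 to 0.16). Rsad2 was lost when Lewis array 2 or 3 or Dahl S array 1 or 3 was removed (0.31 to 0.36, adjusted p = 0.06 to 0.15), and Bst2 without any 1 array but Lewis array 2 (0.30 to 0.43, adjusted p = 0.064 to 0.17).

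Several of the most widely used type I interferon markers did not pass. Irf7, the factor that amplifies type I interferon production, measured 8.35, 8.47 and 8.25 in Dahl S and 8.25, 8.43 and 8.35 in Lewis, with the strains fully intermixed (0.01, SE 0.10, adjusted p = 0.94). Ifit3, which binds viral RNA with its relatives, gave 6.43, 6.26 and 6.45 in Dahl S and 6.30, 6.45 and 6.56 in Lewis, also intermixed (-0.06, SE 0.13, adjusted p = 0.81). Ifit2 differed by 0.19 (SE 0.11), with 0.04 on its other probe set, and Eif2ak2, the RNA-activated kinase PKR, by 0.00 (SE 0.12). Isg15, a ubiquitin-like modifier, had 7.83, 7.87 and 7.54 in Dahl S and 7.33, 7.52 and 7.48 in Lewis; its ranges did not overlap, but Dahl S array 3 came close to Lewis (0.30, SE 0.12, adjusted p = 0.099).

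Oas1a, an oligoadenylate synthetase, differed by 0.33 (SE 0.14) with ranges that did not overlap, and Usp18, which removes Isg15 and dampens receptor signalling, by 0.32 (SE 0.15) with ranges that did. Mx2, whose Lewis values ran from 6.20 to 6.94, differed by 0.39 (SE 0.20). The cytosolic RNA sensors Ifih1, or MDA5, and Ddx58, or RIG-I, gave 0.24 (SE 0.13) and -0.06 (SE 0.09), and Trim25, the ubiquitin ligase that activates RIG-I, -0.17 (SE 0.10). Ifi44 and Ifi44l, neighbouring genes with roles still being worked out, had negative differences, -0.10 (SE 0.14) and -0.24 (SE 0.11). Of these 8 genes, none passed. The strain ranges of Ifih1 (Dahl S above) and of Ifi44l (Dahl S below) did not overlap.

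**Figure D2:**
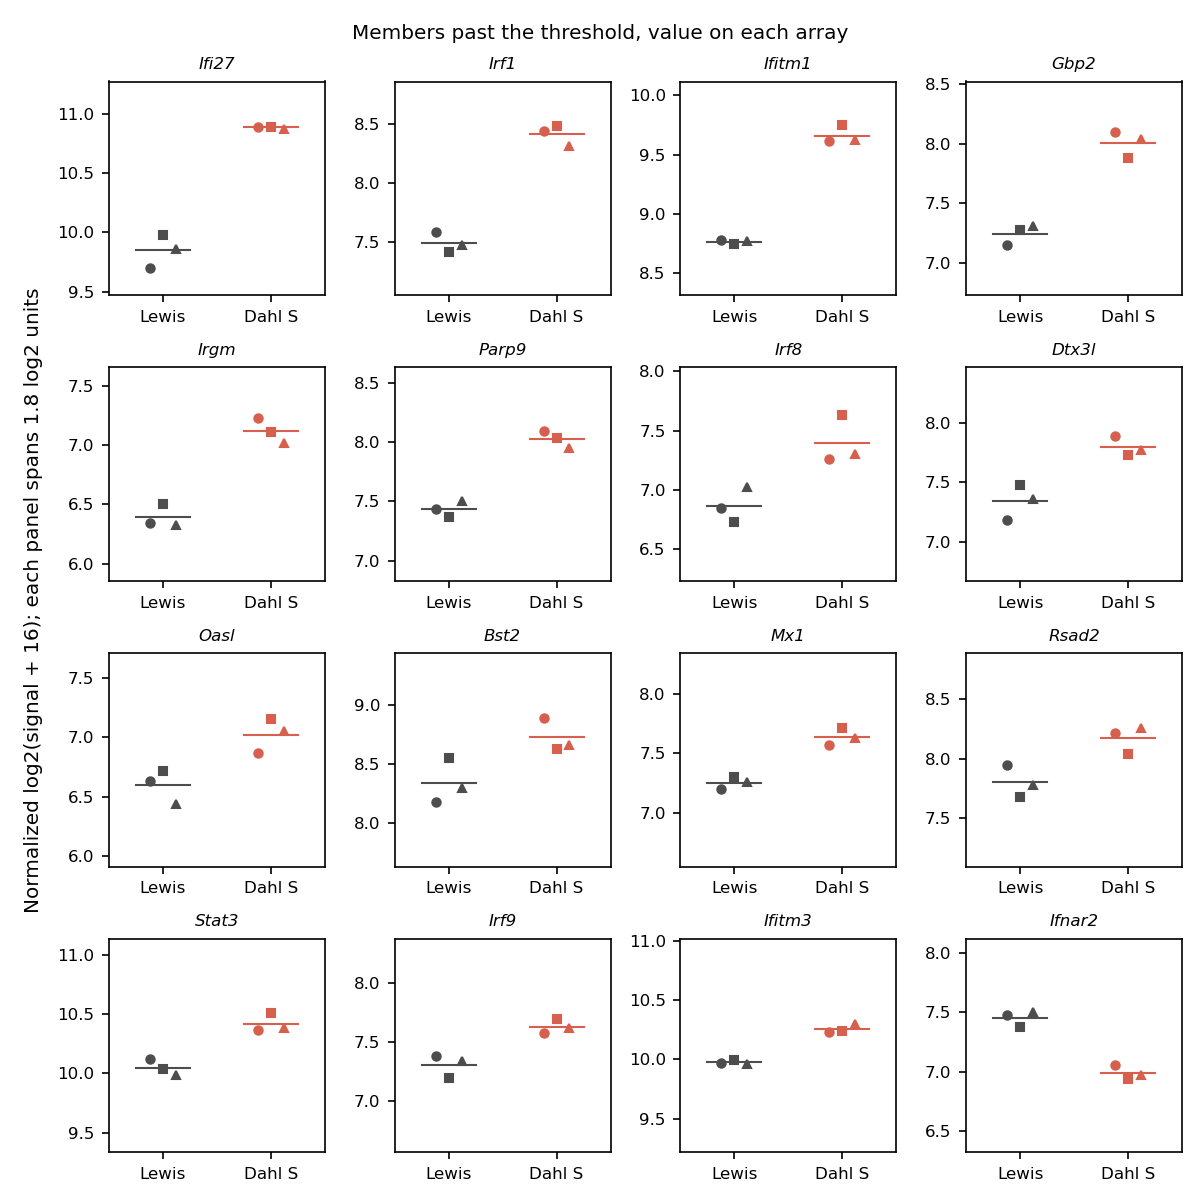
Normalized log2(signal + 16) on each array for the 16 genes past the threshold, each on its brightest probe set; circles, squares and triangles are arrays 1, 2 and 3 of a strain, lines are strain means, and every panel spans the same height. In all 16 panels the strains do not overlap, which their selection by adjusted p makes likely. The difference of strain means ranges from 1.04 for Ifi27 to 0.29 for Ifitm3, with Ifnar2 at -0.46.

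Receptor and signalling genes did not move in 1 direction. Of 6 tested, Stat3 and Irf9 were higher, Ifnar2 was lower on its brighter probe set and 3 did not pass, with a median of 0.06. These shares were 33.3% higher and 16.7% lower, beside 9.04% and 7.59% over all genes. Stat3, a transducer used by interferons but chiefly by interleukin 6 and its relatives, measured 10.37, 10.51 and 10.38 in Dahl S and 10.12, 10.04 and 9.99 in Lewis (0.37, SE 0.07, adjusted p = 0.0042). The strains were apart on this probe set, but overlapped on a second one, which gave 0.12 (adjusted p = 0.56). Averaging the probe sets of a gene ended the calls of Stat3 (0.24, adjusted p = 0.091) and Irf9 (0.23, adjusted p = 0.12). Irf9, the DNA-binding part of ISGF3, had 7.58, 7.69 and 7.62 in Dahl S and 7.38, 7.20 and 7.34 in Lewis (0.32, SE 0.10, adjusted p = 0.049). Its call was the weakest of the 16 by adjusted p: removing any Dahl S array, or Lewis array 2 or 3, ended it (0.27 to 0.35, adjusted p = 0.061 to 0.16), and the second Irf9 probe set gave 0.13 (adjusted p = 0.51).

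Stat2, a part of ISGF3, differed by 0.16 (SE 0.11), with 0.19 on its other probe set, and did not pass on either. Ifngr1, the binding chain of the interferon-gamma receptor, measured 9.37, 9.37 and 9.35 in Dahl S and 9.24, 9.57 and 9.39 in Lewis, with the Dahl S rats inside the Lewis range (-0.04, SE 0.09, adjusted p = 0.83). Ifnar1, a chain of the type I receptor, differed by -0.13 (SE 0.12) on its brightest probe set, and its other 3 tested probe sets gave 0.17 to 0.25, none past the threshold.

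Ifnar2, the binding chain of the type I receptor, gave opposite answers on its 2 probe sets. The brighter one measured 7.06, 6.94 and 6.97 on Dahl S arrays 1, 2 and 3 and 7.48, 7.38 and 7.50 on Lewis arrays 1, 2 and 3, a difference of -0.46, SE 0.10, adjusted p = 0.01. Removing Dahl S array 3 ended this call (-0.45, adjusted p = 0.051). The other measured 7.71, 7.66 and 7.55 in Dahl S and 6.44, 6.81 and 6.12 in Lewis, so that Dahl S exceeded Lewis 2.27-fold (1.18, SE 0.16, adjusted p = 2.6e-04). On each probe set the strains did not overlap. The mean of both was 0.36 (adjusted p = 0.038), so the direction of Ifnar2 depends on the probe set, and neither value can be read as the level of the whole gene. Which transcripts or exons each probe set reads is not given in the sources used here, and sequence differences between the strains under the probes were not tested.

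**Figure D3:**
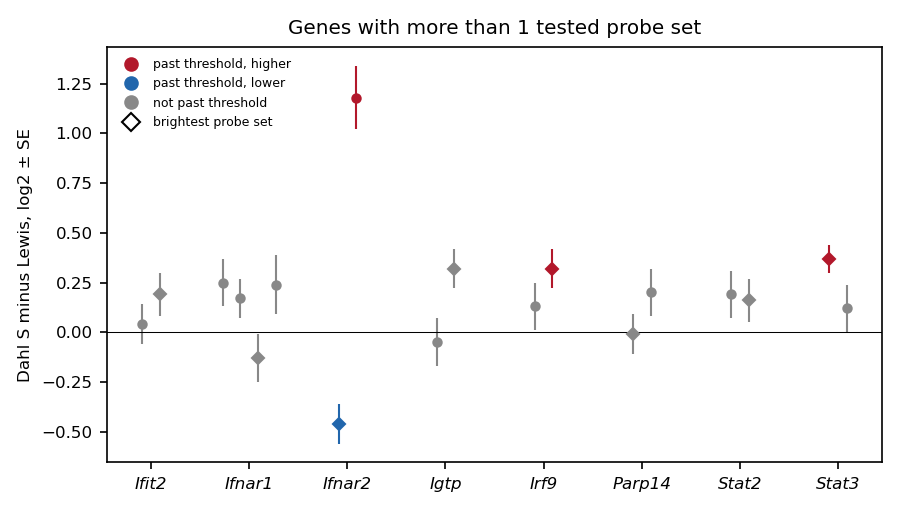
Dahl S minus Lewis (log2, bars are SE) for each tested probe set of the 8 genes with more than 1; diamonds mark the brightest probe set. The 2 Ifnar2 probe sets lie on opposite sides of 0, at -0.46 and 1.18, while the second probe sets of Stat3 and Irf9 lie closer to 0 than the called ones.

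Of these 8 genes, 4 had the same sign on all probe sets, and of the 3 with a call, only Ifnar2 was called on every one. The 8 genes that did not pass the filter had dim probe sets. Ifit1, Isg20, Dhx58, Samhd1, Socs1, Socs3 and Herc6 had no probe set past the threshold when the filter was left out, and their highest deposited signal on any array was 87.7, for Samhd1. Oas1b, an oligoadenylate synthetase gene whose mouse counterpart governs resistance to flaviviruses, was the exception. Its deposited signals were 20.8, 33.9 and 22.0 on Dahl S arrays 1, 2 and 3 against 2.2, 1.3 and 0.8 on the Lewis arrays. All Lewis signals were near the bottom of the scale, and without the filter Oas1b was higher in Dahl S (1.12, SE 0.15, adjusted p = 0.0024); at such signals the size of the difference depends on the pseudocount. Herc6, a ubiquitin ligase gene that attaches Isg15 in mice, had 75.1, 80.6 and 59.9 in Dahl S and 28.8, 21.5 and 7.4 in Lewis, apart but not past the threshold (1.07, SE 0.30, adjusted p = 0.072).

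Other genes of the interferon pathway were taken from a list of 77, of which 60 had a probe set and 50 were tested. Of these 17 were higher in Dahl S and 1 was lower, 34.0% and 2.00%, beside the 9.04% and 7.59% over all genes, with a median of 0.15. Interferon-induced genes held most of the rises, with 14 of 32 higher and 0 lower. The list of 77 was also chosen with earlier results of these data known, so its shares are not independent evidence of a direction. Ifi27l2b, a relative of Ifi27, measured 8.74, 8.87 and 8.80 in Dahl S and 7.66, 8.19 and 7.92 in Lewis (0.88, SE 0.12, adjusted p = 3.7e-04). Rnf213, a giant ubiquitin ligase, gave 7.94, 7.90 and 7.70 in Dahl S and 6.91, 7.23 and 6.96 in Lewis (0.81, SE 0.12, adjusted p = 5.4e-04), and 0.52 on its other probe set. Psmb8, an inducible proteasome subunit, differed by 0.80 (SE 0.12), and Irgm2, another immunity-related GTPase, by 0.69 (SE 0.11). In all 4 the strains did not overlap.

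Of 18 tested signalling genes on that list 3 were higher and 1 lower (16.7% and 5.56%), beside 9.04% and 7.59% over all genes. Ifngr2, the second chain of the interferon-gamma receptor, measured 7.93, 8.28 and 8.15 in Dahl S and 7.55, 7.79 and 7.81 in Lewis (0.40, SE 0.12, adjusted p = 0.034); removing Lewis array 1 or 2 or Dahl S array 2 or 3 ended the call (0.32 to 0.44, adjusted p = 0.057 to 0.15), and the other probe set gave 0.35 (adjusted p = 0.14). The receptor kinases differed little: Jak1 by 0.09 (SE 0.07), Jak2 by 0.06 (SE 0.18) and Tyk2 by -0.11 (SE 0.10), none past the threshold. Pias1, a SUMO ligase that dampens interferon signalling, was lower (-0.54, SE 0.11, adjusted p = 0.0056), but its second probe set gave 0.04 (adjusted p = 0.84). Signals of the interferon genes themselves were near the bottom of the scale in both strains, 1.5 to 2.9 for Ifnb1 and 0.6 to 11.4 for Ifng, and these genes were not tested.

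The labelled tissue was borne out by its markers, with Lrp2, Umod and Aqp2 at deposited signals of 2438.6 or more on every array, and 0 of 9 tested kidney markers passed in either direction on the brightest probe set. A dimmer probe set of Slc34a1, the proximal tubule phosphate transporter, was lower in Dahl S (-0.62, SE 0.11, adjusted p = 0.0022), while its brightest gave -0.06 (adjusted p = 0.55). Many markers of leukocytes were higher in Dahl S along with the interferon genes. The marker counts below stand beside 9.04% higher and 7.59% lower over all genes tested. Of 14 macrophage and myeloid markers 12 were tested, and 9 were higher and 0 lower, with a summed normalized signal of 6869 to 7156 in Dahl S and 5425 to 5555 in Lewis. Aif1, a marker of activated macrophages, differed most on the brightest probe sets, by 0.83 (SE 0.10). Adgre1 (0.18), Mrc1 (0.19) and Tyrobp (0.39) did not pass. The untested Cd163 and Itgam were dim, with overlapping strain ranges and differences of -0.11 and -0.09 without the filter. Of 14 T and NK cell markers 4 were tested and 2 were higher. These were the pan-leukocyte gene Ptprc (0.97 (SE 0.11)) and Lck, a kinase of T cell receptor signalling (0.54 (SE 0.14)). Cd4 (0.10) and Klrk1 (0.17) did not pass, and their strain ranges overlapped. The summed signal of the 4 tested markers was 454 to 499 against 292 to 319. It includes Ptprc, which is not particular to T and NK cells. The probe sets of the defining T cell genes Cd3d, Cd3e, Cd3g and Cd8a did not pass the filter, and no marker was listed at 0. Without the filter the differences of these 4 genes were all positive, 0.28 to 1.05, and the strain ranges overlapped only for Cd3e. Of the other untested T and NK cell markers, Cd2 (0.61) and Nkg7 (0.93) had separate strain ranges. Cd5 (0.25), Gzma (0.05), Prf1 (0.23) and Il2rb (0.02) had overlapping ones. Deposited signals of these probe sets were 74.3 or less, so the sizes depend on the pseudocount. Of 6 tested endothelial markers 2, Pecam1 and Emcn, were lower, with a summed signal of 2332 to 2527 against 2726 to 2942. Of 6 B cell markers 1 was tested and did not pass, and both erythrocyte markers, Hbb and Alas2, were higher. In bulk kidney RNA, more cells of a type and more RNA per cell cannot be told apart, and the part of leukocyte content in the interferon gene differences was not tested.

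**Figure D4:**
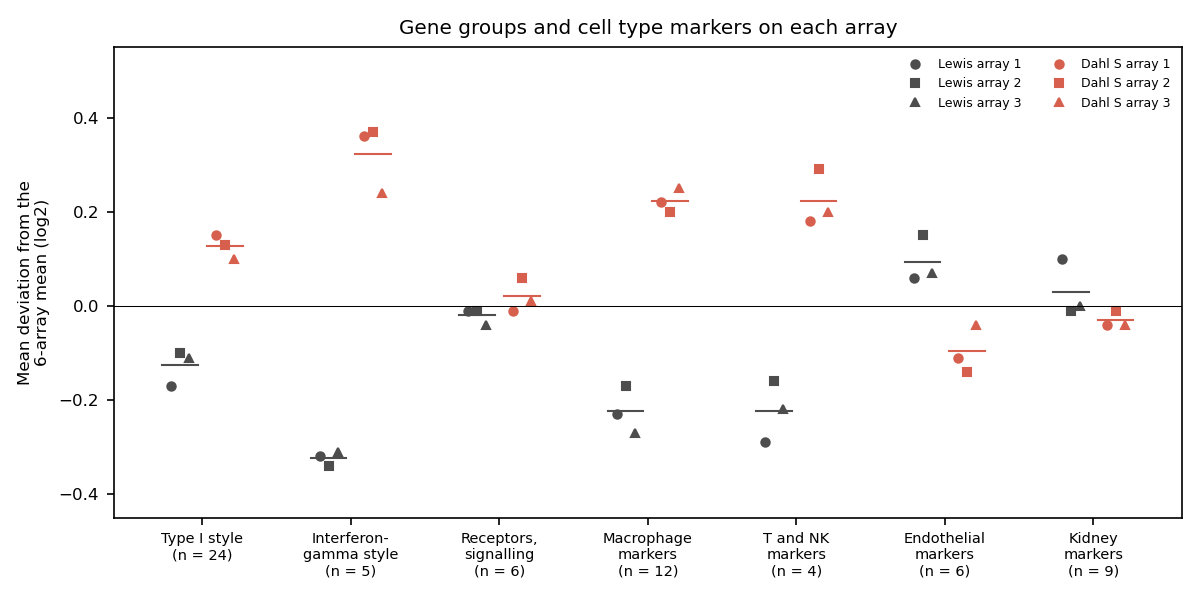
Mean deviation of each gene group from its 6-array mean (log2) on every array; symbols are arrays 1, 2 and 3 of a strain and lines are strain means. Interferon-gamma style genes lie at 0.24 to 0.37 on the Dahl S arrays and -0.34 to -0.31 on the Lewis arrays, macrophage markers at 0.20 to 0.25 and -0.27 to -0.17, and receptor and signalling genes at -0.01 to 0.06 and -0.04 to -0.01.

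The 3 rats of a strain resembled each other. Averaged over the 24 type I style genes, the deviation from the 6-array mean was 0.15, 0.13 and 0.10 on Dahl S arrays 1, 2 and 3 and -0.17, -0.10 and -0.11 on Lewis arrays 1, 2 and 3. Among the 15 genes called higher, the highest Dahl S value was on array 1 in 6 genes, on array 2 in 7 and on array 3 in 2. Interferon-gamma style genes were lower on Dahl S array 3 (0.24) than on arrays 1 and 2 (0.36 and 0.37), with all 3 far above the Lewis arrays.

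The deposited signals differed in overall level between arrays, with a 2% trimmed mean of 118.6 on Lewis array 1 and 174.8 to 250.5 on the other arrays. After normalization, correlations over the tested probe sets were 0.98 to 0.993 within strains and 0.958 to 0.97 between them, where probe sets are not independent replicates. Without Lewis array 1, the dimmest, 15 members were higher.

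**Figure D5:**
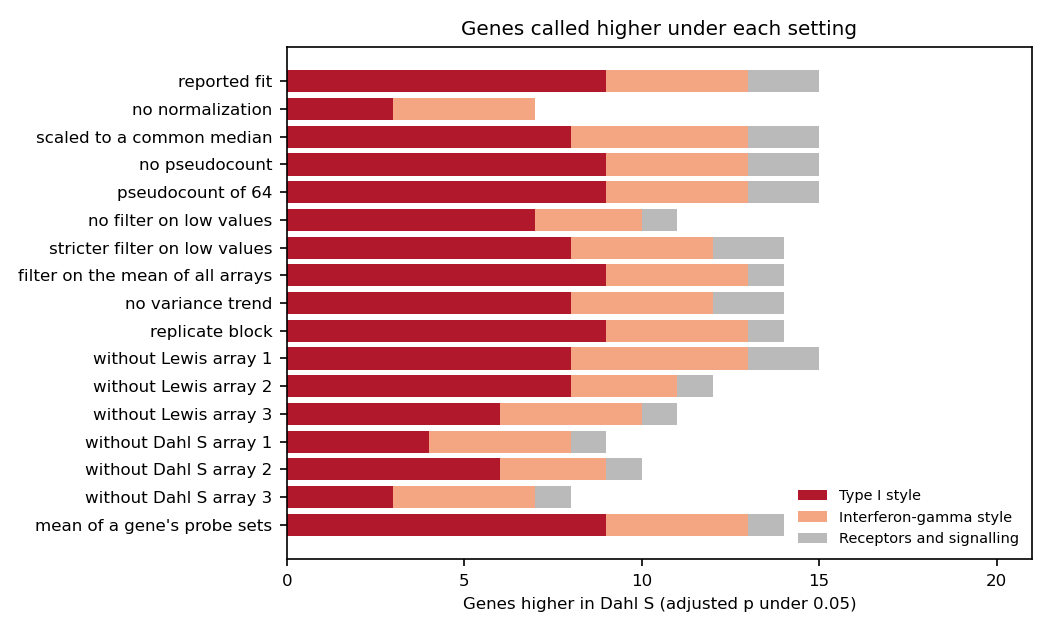
Number of members called higher in Dahl S (adjusted p under 0.05, stacked by group) in the reported fit and under each alternative. The total is 15 in the reported fit and ranges from 7 without normalization to 15, and the interferon-gamma style genes contribute 3 to 5 under every setting shown.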

How the data were processed

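Each of the 6 rats gave kidney RNA for a single array. The deposited linear signal intensities were computed by the authors with GeneChip Operating Software 1.4, per the labels' design text; no scaling target or detection call was given with them. Intensities were brought to log2(signal + 16) and quantile-normalized, which removes any shift shared by most genes. The labels do not state that values were scaled, and array levels differed. Leaving out 57 control probe sets, probe sets were tested if 3 or more of the 6 arrays lay above the median value (15778 of 31099; the level corresponds to a signal of 61.8) with limma 3.58.1 in R 4.3.3 (variance trend, two-sided, Benjamini-Hochberg over all tested). Fold changes are on the log2(signal + 16) scale, which understates dim genes. The number of arrays limits precision. The brightest tested probe set stood for a gene, and further probe sets are given for the genes where they bear on a call.

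Groups and replicate numbers came from the sample titles. Gene names came from the platform annotation, updated by gene identifier (20758 of 21262 annotated probe sets matched RefSeq, GRCr8); 20826 probe sets had 1 symbol, 436 several and 9780 none, and 1 probe set that shares Igtp with other symbols was not used. The members and lists were chosen with earlier results of these data known. Named genes are all members, plus from the pathway list up to 4 genes higher and 4 lower with the smallest adjusted p, and Jak1, Jak2, Tyk2 and Ifngr2 (1 further gene of this rule is not reported here); genes named as untested or as markers were chosen after their values were seen. Each array stands for a separate rat. The p-values weigh the difference between strains against the spread within strains, which mixes differences between animals and between arrays. On simulated data with 15632 probe sets tested for the same comparison, the recovered share was 39.1% at a log2 change of 0.5, 90.8% at 1 and 100% at 2, with 10 of 156 calls false. The data gave 2561 calls, far more than the simulation. Recovery under Benjamini-Hochberg depends on the share of changed probe sets, so these rates need not hold for the data. Alternatives were other normalizations, pseudocounts, filters, variance models, a replicate block, averaging of probe sets and leaving out each array.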

Additional observations from a re-analysis of the deposited data

How the results depend on the processing

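Without normalization 7 members were higher and 0 lower (median 0.69). Of the type I style genes 3 were higher in this setting (median 0.66), and the interferon-gamma style median was 1.10. For receptor and signalling genes 0 were higher and 0 lower (median 0.49), and 8 other pathway genes were higher and 0 lower. Over the whole array 666 probe sets were then called higher and 47 lower, and the median difference was 0.41. A pseudocount of 64 gave medians of 0.24, 0.21 and 0.50 over members, type I style and interferon-gamma style genes, and no pseudocount gave 0.83 for the last. Without a filter the interferon-gamma style median was 0.63, and 1 receptor and signalling gene was higher (median 0.16). With the filter on the mean of all arrays, and with the replicate block, 1 receptor and signalling gene was higher; the block moved the members' higher calls from 15 to 14, Irf9 being lost, and those of all probe sets from 1342 to 1290. Deviations of same-numbered arrays correlated by -0.046, -0.098 and 0.11, so the numbers were not taken as pairs. Averaging the probe sets of each gene, 0 members were lower (median 0.29), 1 receptor and signalling gene was higher and 0 lower (median 0.20), the 1 being Ifnar2, called lower in the reported fit, while Stat3 (0.24, adjusted p = 0.091) and Irf9 (0.23, adjusted p = 0.12) were lost, and 0 other pathway genes were lower.

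With 1 array left out, members higher ranged from 8 to 15 and lower from 0 to 1 (median 0.29 to 0.33), type I style genes higher from 3 to 8 (median 0.23 to 0.30), interferon-gamma style genes higher from 3 to 5 (median 0.67 to 0.78), receptor and signalling genes higher from 1 to 2 and lower from 0 to 1 (median 0.01 to 0.10), other pathway genes higher from 12 to 17 and lower from 1 to 2, and all probe sets higher from 762 to 1444 and lower from 723 to 1339.

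Of the differences that changed sign, only that of Ifnar2 was called. Without normalization Ifi44 was 0.30, Ifi44l 0.18, Ifit3 0.29, Parp14 0.41, Ddx58 0.38, Trim25 0.27, Ifngr1 0.40, Ifnar1 0.28 and Tyk2 0.31. The mean of probe sets gave 0.09 for Parp14, 0.13 for Ifnar1 and 0.36 for Ifnar2. Parp14 was 0.00 with arrays scaled to a common median, and Eif2ak2 0.00 with a pseudocount of 64. With 1 array left out, Ifit3 ranged from -0.13 to 0.00, Irf7 from -0.04 to 0.07, Parp14 from -0.06 to 0.02, Ddx58 from -0.11 to 0.00, Eif2ak2 from -0.13 to 0.07, Ifngr1 from -0.12 to 0.05 and Jak2 from -0.07 to 0.28. The cause of these changes was not tested. The fit's power limits small effects, and the 8 dim members have no reliable size here.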
